A study of Homo sapiens with 6 samples.

Results

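The activin system of MDA-MB-231 breast cancer cells was described from the probe sets of 10 genes, the ligand subunits INHA, INHBA, INHBB and INHBE, the binding proteins FST, FSTL1 and FSTL3, and the receptors ACVR1B, ACVR2A and ACVR2B. Every probe set whose only gene symbol in the platform annotation was one of these was taken, which gave 24 probe sets, of 41091 on the array with a single symbol (19775 genes). The genes were chosen with earlier results of this same comparison known. Their values are therefore given as a description, without p-values. MDA-MB-231 is an established human line of basal, mesenchymal-like breast cancer. There were 3 arrays of cells that had received a lentivirus for GATA3 together with enhanced green fluorescent protein (GFP), and 3 of cells that had received a lentivirus for GFP alone. Cells of both groups had been sorted for GFP and grown in the same medium, and their RNA was collected 2 days after seeding. The mammary gland needs the transcription factor GATA3 for its luminal lineage, and the title of the series concerns its effect on basal cells. The labels do not say that the 3 arrays of a group came from separate cultures, so errors and p-values cover array-to-array spread only, and that spread may be technical.

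Activins are secreted dimers of inhibin beta subunits and belong to the TGF-beta superfamily. They bind the type II receptors ACVR2A or ACVR2B, which then activate the type I receptor ACVR1B, also called ALK4, and the activated receptor phosphorylates SMAD2 and SMAD3. A dimer of a beta subunit with the alpha subunit INHA is an inhibin, which competes for the type II receptors with the help of the co-receptor TGFBR3. Follistatin (FST) and the related FSTL3 wrap around activins and keep them from their receptors. In the mammary gland activin signalling is known for a role in ductal growth and in the restraint of epithelial proliferation.

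The promoter windows of INHBA, INHBB and FST are shown because these are the ligand and antagonist genes with the widest differences between the groups. The sequences are the 250 bases before the annotated start in RefSeq, build GRCh38.p14, and capitals mark a GATA word or a SMAD word. The INHBA window is chr7:41703091-41703340 on the minus strand and lies inside the annotated span of the gene (41685114 to 41705406). The INHBB window is chr2:120345886-120346135 and the FST window chr5:53480379-53480628, both on the plus strand and outside the annotated genes.
INHBA: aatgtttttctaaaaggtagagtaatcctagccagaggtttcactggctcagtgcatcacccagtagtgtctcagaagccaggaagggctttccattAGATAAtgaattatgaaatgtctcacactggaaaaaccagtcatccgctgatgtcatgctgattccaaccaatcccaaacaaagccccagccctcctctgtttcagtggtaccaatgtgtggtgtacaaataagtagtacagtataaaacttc
INHBB: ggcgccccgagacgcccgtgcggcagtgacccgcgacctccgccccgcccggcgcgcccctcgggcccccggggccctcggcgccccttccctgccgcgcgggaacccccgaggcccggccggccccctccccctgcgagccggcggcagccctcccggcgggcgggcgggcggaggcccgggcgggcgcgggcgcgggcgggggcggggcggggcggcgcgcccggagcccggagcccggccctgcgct
FST: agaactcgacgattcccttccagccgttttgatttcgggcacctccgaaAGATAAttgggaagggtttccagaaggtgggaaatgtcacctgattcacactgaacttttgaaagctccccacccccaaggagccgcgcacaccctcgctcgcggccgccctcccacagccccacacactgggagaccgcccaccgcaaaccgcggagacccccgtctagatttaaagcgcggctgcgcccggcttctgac

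Windows were at hand for 9 of the 10 genes, with a pair of windows for ACVR1B. They were searched on both strands for 4 GATA words and 2 SMAD words. The GATA words were AGATAA with its variant that ends in G, written AGATAG, and the same pair with T as the opening base, written TGATAA or, with G at the end, TGATAG. The SMAD words were the palindrome GTCTAGAC and the shorter word CAGACA. No word overlapped another in these windows. A GATA word stood in 22.3% of all 35116 promoter windows of this length and a SMAD word in 13.8%. INHBA held 1 AGATAA, 153 to 148 bases before the start, and FST held 1 AGATAA, 201 to 196 bases before the start. INHBB held none of the words. INHA held a pair of GATA words and CAGACA, and the downstream window of ACVR1B held AGATAA on each strand and CAGACA. The windows of FSTL1, FSTL3, ACVR2A and ACVR2B and the upstream window of ACVR1B held none. The same word AGATAA, found in 9.17% of all windows, thus stood before INHBA, which was higher in the arrays labelled GATA3, and before FST, which was lower. The windows differed widely in base composition. INHBA had 42.8% G and C with 1 CpG, INHBB 89.6% with 46 CpG and FST 60.0% with 20 CpG, where the median window of all promoters had 58.0% and 11 CpG. Such matches are letters in a window and say nothing on binding.

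Expression values are GCRMA values, read as log2. GCRMA leaves dim probe sets near a floor of 2.16, and a value of 4 was taken as the detection level. A probe set was tested where at least 3 of the 6 arrays lay over 4, which left 23785 probe sets. GATA3 replicate 3 stood apart before any result was drawn. It correlated with the other arrays labelled GATA3 at 0.984 and 0.986, where those 2 correlated at 0.997, its 75th percentile was 7.78 against 7.97 to 8.04 elsewhere, and it alone has a raw file of another date. The introduced gene read lower, not higher, under its label. Probe set 209604_s_at of GATA3 had 7.93, 7.94 and 7.32 in the arrays labelled GATA3, against 9.37, 9.35 and 9.45 in the GFP arrays, a difference of -1.66 (SE 0.18, adjusted p 0.00238). The dimmer 209602_s_at had 3.41, 3.28 and 3.04 in the arrays labelled GATA3, against 4.73, 4.38 and 5.07 in the GFP arrays. Its difference was -1.48 (adjusted p 0.00444), with only the GFP arrays over the detection level. GATA3 probe set 209603_at lay under that level on every array. Whether the array's GATA3 probes match the lentiviral insert was not tested, and every direction below rests on the labels. Cell line markers fitted the label, with VIM, CD44, CAV1, EGFR and MSN at 11.87 to 15.06 on every array. Of these 5, EGFR rose by 0.33 (adjusted p 0.0278), while VIM and MSN passed with differences of -0.32 and -0.24 (adjusted p 0.0158 and 0.0342). Of 9 markers of luminal, blood, endothelial and fibroblast cells, PGR, FOXA1, PTPRC, PECAM1, VWF, PDGFRA and DCN lay at 2.16 to 2.23. ESR1 read 4.02 on 5 arrays and 4.45 on GATA3 replicate 3, and COL1A1 read 6.48 to 6.70, and limma called 0 of these 2 (0 at an unadjusted p under 0.05). The 9 markers summed, on the unlogged scale, to 137 to 151 in the arrays labelled GATA3 and 143 to 150 in the GFP arrays. Most of each sum came from COL1A1, taken by 217430_x_at. Without it the sums were 47.6 to 53.5 in the arrays labelled GATA3 and 47.6 in the GFP arrays. COL1A1 probe set 202310_s_at, not tested, had 4.98, 4.04 and 3.92 in the arrays labelled GATA3, against 3.39, 3.37 and 3.05 in the GFP arrays. A further COL1A1 probe set, 1556499_s_at, had 6.62, 6.85 and 7.35 in the arrays labelled GATA3, against 3.70, 4.12 and 4.38 in the GFP arrays, and rose 7.32-fold (adjusted p 0.00109). Its part in the results below was not tested. In such bulk RNA a smaller share of expressing cells and less RNA per cell cannot be told apart.

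Of the 24 probe sets of the activin system, 14 lay over the detection level often enough to be tested. They covered 8 genes, and INHA and INHBE had none. Of the 14, 9 passed an adjusted p of 0.05 in the fit over all probe sets, 3 of them with a positive difference and 6 with a negative one. With 1 probe set per gene, the brightest tested one, 5 of the 8 genes passed, beside 29.3% of all tested genes. Across the array 25.3% of tested probe sets passed, 11.3% higher and 14.0% lower. INHBB and ACVR2B did not keep their call with an array left out. INHBB missed the threshold without GATA3 replicate 1 or 2 or GFP replicate 1 or 2, and ACVR2B without any one array but GFP replicate 1. The other 7 passed whichever array was left out, among them INHBA probe sets over the detection level only in the arrays labelled GATA3. Nothing is read from the count or from these passes, because the genes were chosen from this comparison. The groups did not overlap in 3 of the 14 in the higher direction and in 8 in the lower one, beside 18.0% and 28.0% of all tested probe sets (46.0% together). Among the 14 were 2 that were over the detection level only in the arrays labelled GATA3 and 1 only in the GFP arrays, and these had to differ to enter the fit.

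The ligand subunits went opposite ways. INHBA, the beta A subunit that forms activin A, was clearly present in the arrays labelled GATA3 and under the detection level in the GFP arrays. INHBB, the beta B subunit that forms activin B, was under the detection level in the arrays labelled GATA3 and present in the GFP arrays. INHA and INHBE stayed at the floor in both groups.

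INHBA probe set 210511_s_at had 9.78, 9.65 and 9.31 in the arrays labelled GATA3, against 3.79, 3.99 and 3.68 in the GFP arrays. All 3 arrays labelled GATA3 lay far above the detection level and all 3 GFP arrays under it. The difference was 5.76 (SE 0.16), at least 47.9-fold higher. Probe set 227140_at had 7.11, 7.79 and 7.22 in the arrays labelled GATA3, against 2.26, 2.27 and 2.56 in the GFP arrays. Its difference of 5.02 (SE 0.20), at least 10.4-fold higher, was likewise against GFP values under the detection level. The remaining probe set, 204926_at, did not show this. It had 3.41, 3.75 and 3.50 in the arrays labelled GATA3, against 3.41, 3.32 and 3.06 in the GFP arrays, all under the detection level and sharing the value 3.41, and it was not tested. The higher reading of INHBA thus rests on 2 of its 3 probe sets, and 210511_s_at carries the suffix used for probes shared by several transcripts. Among the other tested probe sets of the activin system, 204948_s_at of FST, 205327_s_at of ACVR2A and 203592_s_at carry it too. The last is the only probe set of FSTL3.

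INHBB has 1 probe set, 205258_at. It had 3.38, 2.37 and 3.38 in the arrays labelled GATA3, against 7.79, 7.37 and 5.11 in the GFP arrays. The groups did not overlap, but the GFP arrays were themselves spread over more than the distance between the nearest arrays of the groups, with GFP replicate 3 the lowest. The arrays labelled GATA3 averaged 3.05 ± 0.58, and the GFP arrays 6.75 ± 1.44 (SD, n = 3 each). The difference was -3.71 (SE 0.76), at least 6.75-fold lower. It was -4.53 without GFP replicate 3 and -3.19 without GFP replicate 1.

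INHA, the subunit that turns an activin into an inhibin, read 2.16, 2.16 and 2.18 in the arrays labelled GATA3 and 2.16 on every GFP array. INHBE, the beta E subunit known mainly from liver, read 2.16 on all 6 arrays. No inhibin alpha transcript was thus seen at the sensitivity of its probe set in either group.

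**Figure D1:**
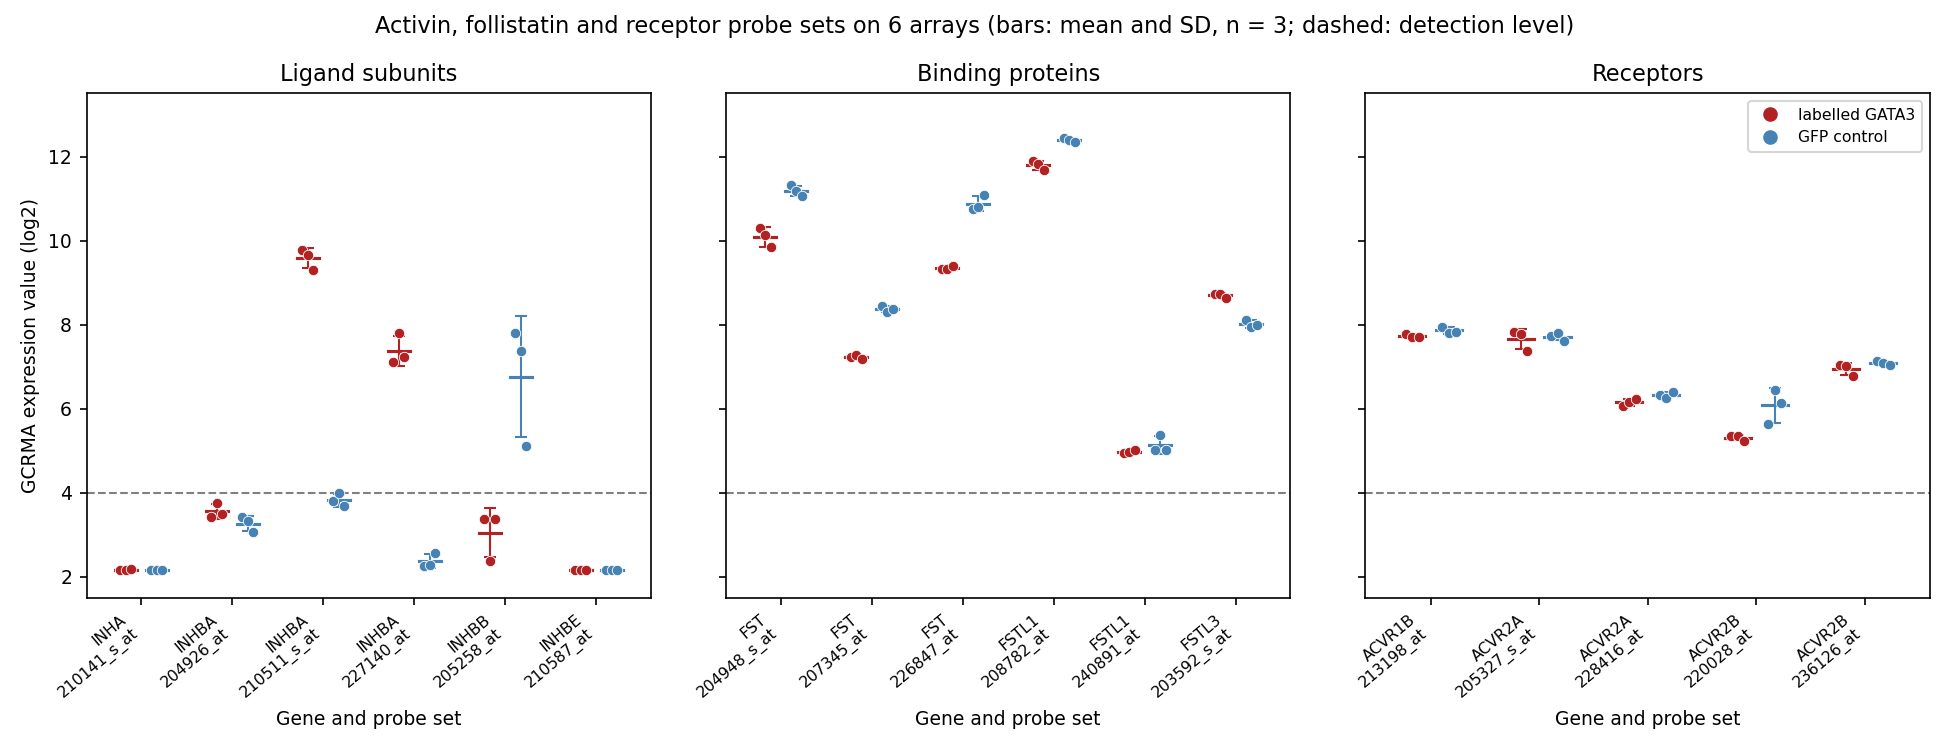
GCRMA values (log2, vertical axis) of the 14 tested probe sets and of 3 untested ones of INHA, INHBA and INHBE, with the 3 arrays labelled GATA3 in red to the left of the 3 GFP control arrays in blue. Horizontal bars are means and vertical bars SD (n = 3), and the dashed line is the detection level of 4. INHBA, by its tested probe sets, and INHBB change places about that line, while INHBA 204926_at stays under it in both groups. FST is lower in the arrays labelled GATA3 by each of its probe sets, and most receptor probe sets lie at similar values in both groups.

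Among the binding proteins, FST was lower in the arrays labelled GATA3, FSTL3 was higher and FSTL1 slightly lower. All 3 genes were well over the detection level in both groups, so their differences are between measured levels.

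FST, follistatin, was lower by each of its 3 probe sets. Probe set 226847_at had 9.32, 9.33 and 9.39 in the arrays labelled GATA3, against 10.75, 10.81 and 11.08 in the GFP arrays. The difference was -1.53 (SE 0.10), 2.89-fold lower. Probe set 207345_at had 7.22, 7.27 and 7.17 in the arrays labelled GATA3, against 8.43, 8.30 and 8.37 in the GFP arrays, a difference of -1.15 (SE 0.07), 2.21-fold lower. Probe set 204948_s_at had 10.29, 10.12 and 9.84 in the arrays labelled GATA3, against 11.31, 11.17 and 11.06 in the GFP arrays, a difference of -1.09 (SE 0.13), 2.13-fold lower. No array labelled GATA3 reached the lowest GFP array in any of the 3, and the spread within a group was small beside the gap.

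FSTL3, a follistatin relative that also binds activins, had 8.73, 8.73 and 8.63 in the arrays labelled GATA3, against 8.11, 7.93 and 8.00 in the GFP arrays (203592_s_at). The difference was 0.69 (SE 0.08), 1.61-fold higher, so the activin-binding proteins FST and FSTL3 differed in opposite directions. FSTL1, a secreted glycoprotein with a follistatin-type domain, had 11.89, 11.81 and 11.68 in the arrays labelled GATA3, against 12.44, 12.39 and 12.35 in the GFP arrays (208782_at), a difference of -0.60 (SE 0.06), 1.51-fold lower. A dim FSTL1 probe set, 240891_at, read 4.94 to 5.01 in the arrays labelled GATA3 and 5.01 to 5.37 in the GFP arrays, with groups that met at 5.01, and 230744_at lay at the floor of 2.16 on every array.

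The receptors differed less, but for 1 probe set of ACVR2B. Of their 11 probe sets, 5 were tested, and 1 of these, for ACVR2B, passed the threshold, beside 25.3% of all tested probe sets. That call was lost without any one array but GFP replicate 1, and nothing is read from the count. ACVR1B, the type I receptor of activins, had 7.78, 7.70 and 7.70 in the arrays labelled GATA3, against 7.95, 7.81 and 7.82 in the GFP arrays (213198_at). The groups did not overlap, but the difference was small, at -0.13 (SE 0.07). The 5 other probe sets of ACVR1B lay between 2.17 and 3.28 on all arrays, so only 1 of 6 detected the gene.

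ACVR2A, a type II receptor, had 7.83, 7.77 and 7.38 in the arrays labelled GATA3, against 7.73, 7.79 and 7.62 in the GFP arrays (205327_s_at), and the groups overlapped. Its difference was -0.05 (SE 0.14), and that of 228416_at was -0.18 (SE 0.08), with 6.06 to 6.23 in the arrays labelled GATA3 and 6.26 to 6.40 in the GFP arrays. The probe sets of ACVR2B, the other type II receptor, gave unequal differences. The dimmer one, 220028_at, had 5.34, 5.34 and 5.23 in the arrays labelled GATA3, against 5.64, 6.45 and 6.14 in the GFP arrays, a difference of -0.78 (SE 0.21), 1.71-fold lower. The brighter one, 236126_at, had 7.03, 7.01 and 6.77 in the arrays labelled GATA3, against 7.13, 7.09 and 7.03 in the GFP arrays, a difference of -0.15 (SE 0.10), with groups that met at 7.03. The last, 1559548_at, read 2.24 to 2.28.

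**Figure D2:**
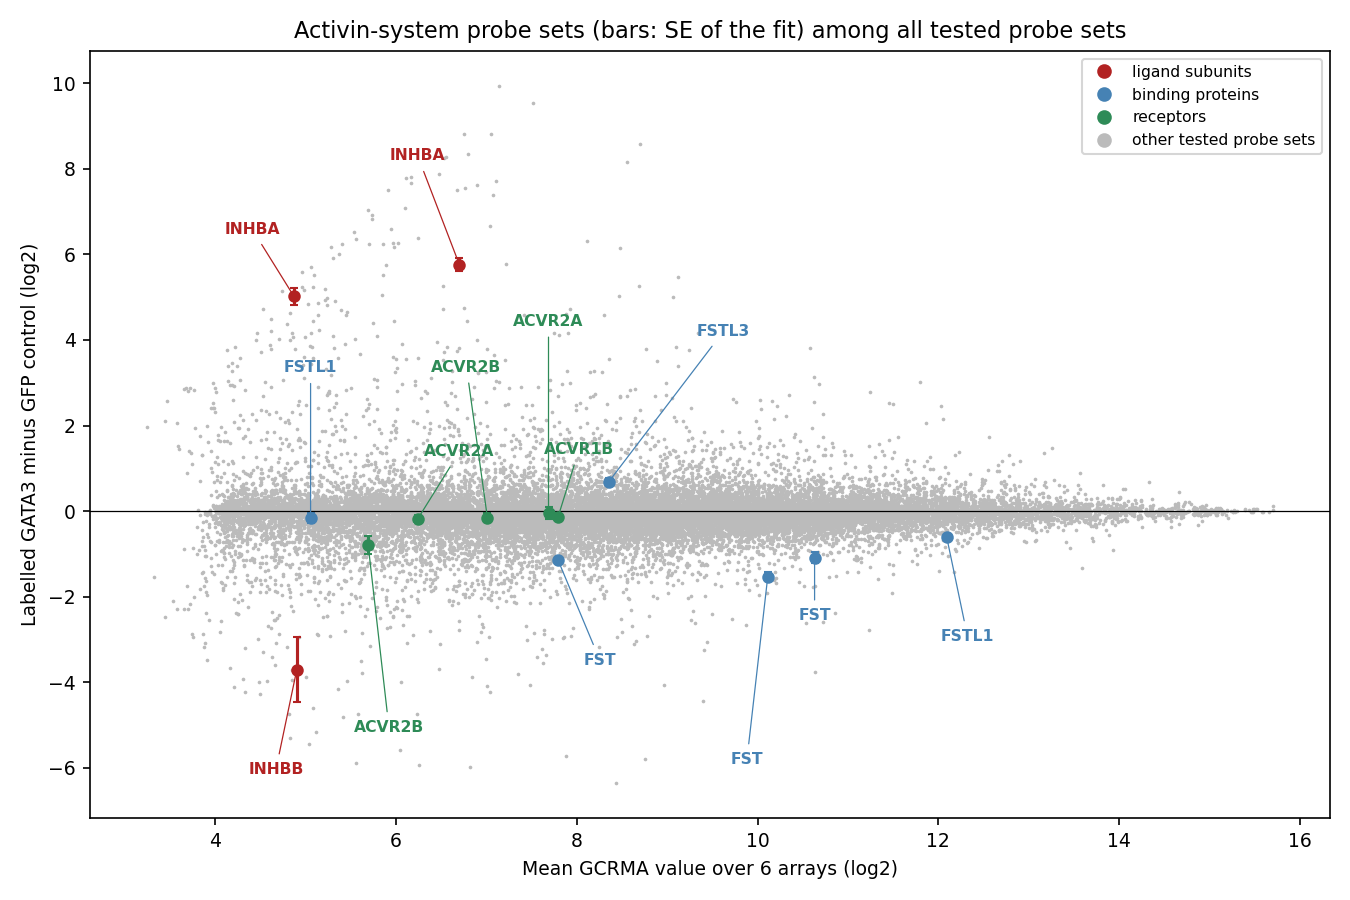
Difference between the arrays labelled GATA3 and the GFP control arrays (log2, vertical axis) against the mean over 6 arrays (log2, horizontal axis) for the 23785 tested probe sets in grey, with the 14 probe sets of the activin system in colour by role and bars for the SE of the fit. The ligand subunits INHBA and INHBB lie far from 0 on opposite sides, the 3 FST probe sets lie at -1.09 to -1.53, and the receptors lie at -0.05 to -0.78.

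The genes whose profile over the 6 arrays lay nearest to that of INHBA or INHBB were taken among tested genes by the Euclidean distance of log2 values, each profile set to 0 at its GFP mean. The 6 arrays form the 2 groups, so nearness mostly reflects a like difference between them. For INHBA (210511_s_at) the nearest were HHIP, which encodes an antagonist of Hedgehog ligands, at a distance of 0.25, the adaptor gene SAMSN1 at 0.38, the TGF-beta superfamily ligand gene BMP5 at 0.41 and TNFAIP3, which encodes a brake on NF-kappaB signalling, at 0.41. HHIP had 8.90, 8.88 and 8.52 in the arrays labelled GATA3, against 3.16, 3.03 and 2.87 in the GFP arrays. For INHBB no gene came as close, and the 4 nearest lay at 1.84 to 2.06. They were ADSS1, an enzyme gene of purine nucleotide synthesis, the forkhead factor gene FOXA2, the lysyl oxidase gene LOX by its probe set 213640_s_at, and the homeobox gene IRX5. GFP replicate 3 was the lowest GFP array in each of the 4, as in INHBB, but by less. ADSS1 had 2.16 on every array labelled GATA3, against 6.71, 6.23 and 5.85 in the GFP arrays.

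**Figure D3:**
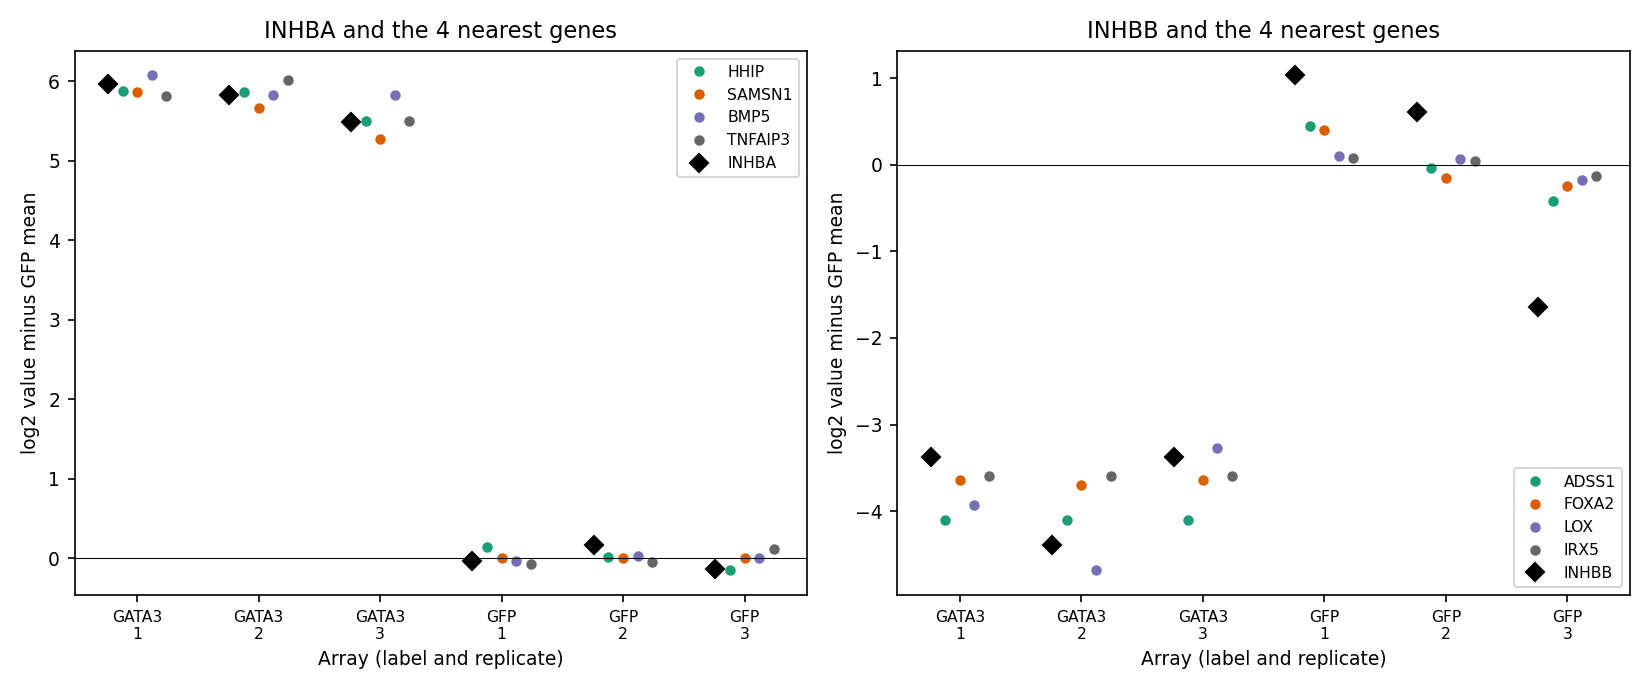
Values on each array as log2 minus the mean of the GFP arrays (vertical axis), with the 3 arrays labelled GATA3 left of the 3 GFP arrays, for INHBA (left panel) and INHBB (right panel) as black diamonds and their 4 nearest genes as coloured points. Each near gene is shown by its nearest probe set. The genes near INHBA follow it closely on all 6 arrays by these probe sets, while INHBB spreads more widely over the GFP arrays than its nearest genes.

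Other genes of the pathway were taken from 5 lists of 49 genes, none of them among the 10 above, and were tested in the same limma fit over all probe sets with 1 probe set per gene. The lists too were chosen with earlier results of these data known, so their adjusted p-values and shares are no independent test. Single-symbol probe sets existed for 45 and were tested for 31. Of these 31, 5 rose, 5 fell and 21 did not pass, with a median difference of 0.05, beside a median of -0.02 over all 10814 tested genes. Each direction was 16.1% of the list genes, beside 14.8% higher and 14.5% lower of all tested genes. With GATA3 replicate 3 left out, 9 list genes were higher and 7 lower.

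Targets of SMAD2 and SMAD3 went both ways. Of 10 tested, 3 rose, 2 fell and 5 did not pass, with a median of 0.21. CDKN1A, the cell cycle inhibitor p21, had 10.81, 10.67 and 10.50 in the arrays labelled GATA3, against 9.64, 9.67 and 9.74 in the GFP arrays, and rose 1.97-fold (0.98, SE 0.09, adjusted p 0.00112). PMEPA1, which encodes a membrane protein that holds back SMAD2 and SMAD3, had 10.72, 10.77 and 10.54 in the arrays labelled GATA3, against 9.82, 9.77 and 9.63 in the GFP arrays. It rose 1.91-fold (0.93, SE 0.08, adjusted p 0.00113), and its other probe sets rose by 0.64 and 0.53. CCN2, connective tissue growth factor, rose 1.33-fold (adjusted p 0.000899).

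TGFBI, a secreted matrix protein gene named for its response to TGF-beta, went the other way. It had 9.78, 9.68 and 9.48 in the arrays labelled GATA3, against 11.40, 11.41 and 11.38 in the GFP arrays, and fell 3.36-fold (-1.75, SE 0.08, adjusted p 0.000109). GADD45B, a stress response gene, fell by 0.23 (adjusted p 0.0255) by its brightest probe set. That adjusted p was 0.0863 without GATA3 replicate 2 and 0.0810 and 0.0873 without GFP replicates 1 and 3. Of its other tested probe sets, 209305_s_at passed at -0.72 (adjusted p 0.0285) and 209304_x_at did not, at -0.25 (adjusted p 0.155). The inhibitory SMAD7 (-0.09, adjusted p 0.546), SKIL (0.58, adjusted p 0.0822), JUNB (0.01, adjusted p 0.963), KLF10 (0.08, adjusted p 0.599) and LTBP2 (0.34, adjusted p 0.172) did not pass. Without GATA3 replicate 3, SKIL differed by 0.75 with an adjusted p of 0.0320. CDKN2B lay at 2.23 to 2.81 and was not tested.

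Of the SMAD transducers and their regulators, all 14 were tested, 1 rose, 3 fell and 10 did not pass, with a median of -0.03. SMAD3, a carrier of the activin signal to the nucleus, had 9.07, 8.93 and 8.92 in the arrays labelled GATA3, against 9.64, 9.45 and 9.54 in the GFP arrays. It fell 1.48-fold (-0.57, SE 0.08, adjusted p 0.00470), and its 3 other probe sets also passed, with differences of -0.89, -1.08 and -1.41. SMAD2, which carries the same signal, differed by 0.02 (adjusted p 0.901). Its other probe sets differed by -0.37 to -0.04, and none passed. SMAD4, the common partner of SMAD2 and SMAD3, differed by 0.30 (adjusted p 0.115). Without GATA3 replicate 3 that SMAD4 probe set differed by 0.41 with an adjusted p of 0.0181. The other tested SMAD4 probe set, 235725_at, differed by -0.08 with all arrays (adjusted p 0.599).

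The co-repressor gene TGIF1 fell by 0.40 (adjusted p 0.0385) and DRAP1, known in mice to restrain Nodal signalling, by 0.32 (adjusted p 0.0215). Other tested probe sets of TGIF1 did not pass, with differences of -0.95 (1566901_at, adjusted p 0.176) and 0 (244858_at). The call of TGIF1 was lost without GATA3 replicate 1 or any GFP array (adjusted p 0.0750 to 0.127), and that of DRAP1 without GATA3 replicates 1 or 2 or any GFP array (adjusted p 0.0550 to 0.0754). PPM1A, a phosphatase described to act on SMAD2 and SMAD3, rose by 0.58 (adjusted p 0.0267) by its brightest probe set, but fell by 0.85 (adjusted p 0.0186) by another, 231370_at. Its rise was lost without GATA3 replicate 2 or any GFP array (adjusted p 0.0508 to 0.0984). SMURF2, a ubiquitin ligase of the pathway, did not pass by its brightest probe set (-0.30, adjusted p 0.218), while its 3 other probe sets did, with differences of -0.65, -0.83 and -1.42. The brightest SMURF2 probe set differed by -0.47 without GATA3 replicate 3 (adjusted p 0.0100). NEDD4L, a further ubiquitin ligase, likewise missed the threshold by its brightest probe set (-0.09, adjusted p 0.251), while 2 others passed at -0.52 and -0.82 (adjusted p 0.0369 and 0.00124).

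Among the proprotein convertases, which cut TGF-beta superfamily precursors into active ligands, FURIN and PCSK7 were tested. FURIN had 9.17, 9.28 and 9.57 in the arrays labelled GATA3, against 8.75, 8.43 and 8.57 in the GFP arrays, and rose 1.69-fold (0.76, SE 0.14, adjusted p 0.0126). That call was lost without GFP replicates 2 or 3 (adjusted p 0.0507 and 0.0550). PCSK7 differed by 0.20 (adjusted p 0.165), and PCSK5 and PCSK6 lay at 2.16 to 2.59 by their brightest probe sets.

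Of the other receptors and co-receptors, 3 were tested, and limma called 0, with 2 at an unadjusted p under 0.05. ACVR1, a type I receptor mainly of bone morphogenetic proteins, differed by -0.42 (adjusted p 0.0586), the pseudo-receptor BAMBI by -0.04 (adjusted p 0.698) and TGFBR3, the inhibin co-receptor, by 0.32 (adjusted p 0.110). TGFBR3 differed by 0.44 with an adjusted p of 0.00731 without GATA3 replicate 3. Of the other ligands and antagonists, limma tested 2 and called 0, with 0 at an unadjusted p under 0.05. INHBC, the beta C subunit, had 7.09, 7.00 and 8.85 in the arrays labelled GATA3, against 7.60, 8.22 and 7.73 in the GFP arrays, and GATA3 replicate 3 was the highest of all 6. Its difference was -0.20 (SE 0.53, adjusted p 0.801), and -0.80 without that array (adjusted p 0.0485). GDF11, a ligand that also binds activin type II receptors, differed by 0.26 (adjusted p 0.544). The 9 others with probe sets, among them MSTN, NODAL and LEFTY1, lay at 2.16 to 3.72 by their brightest probe sets and were not tested.

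**Figure D4:**
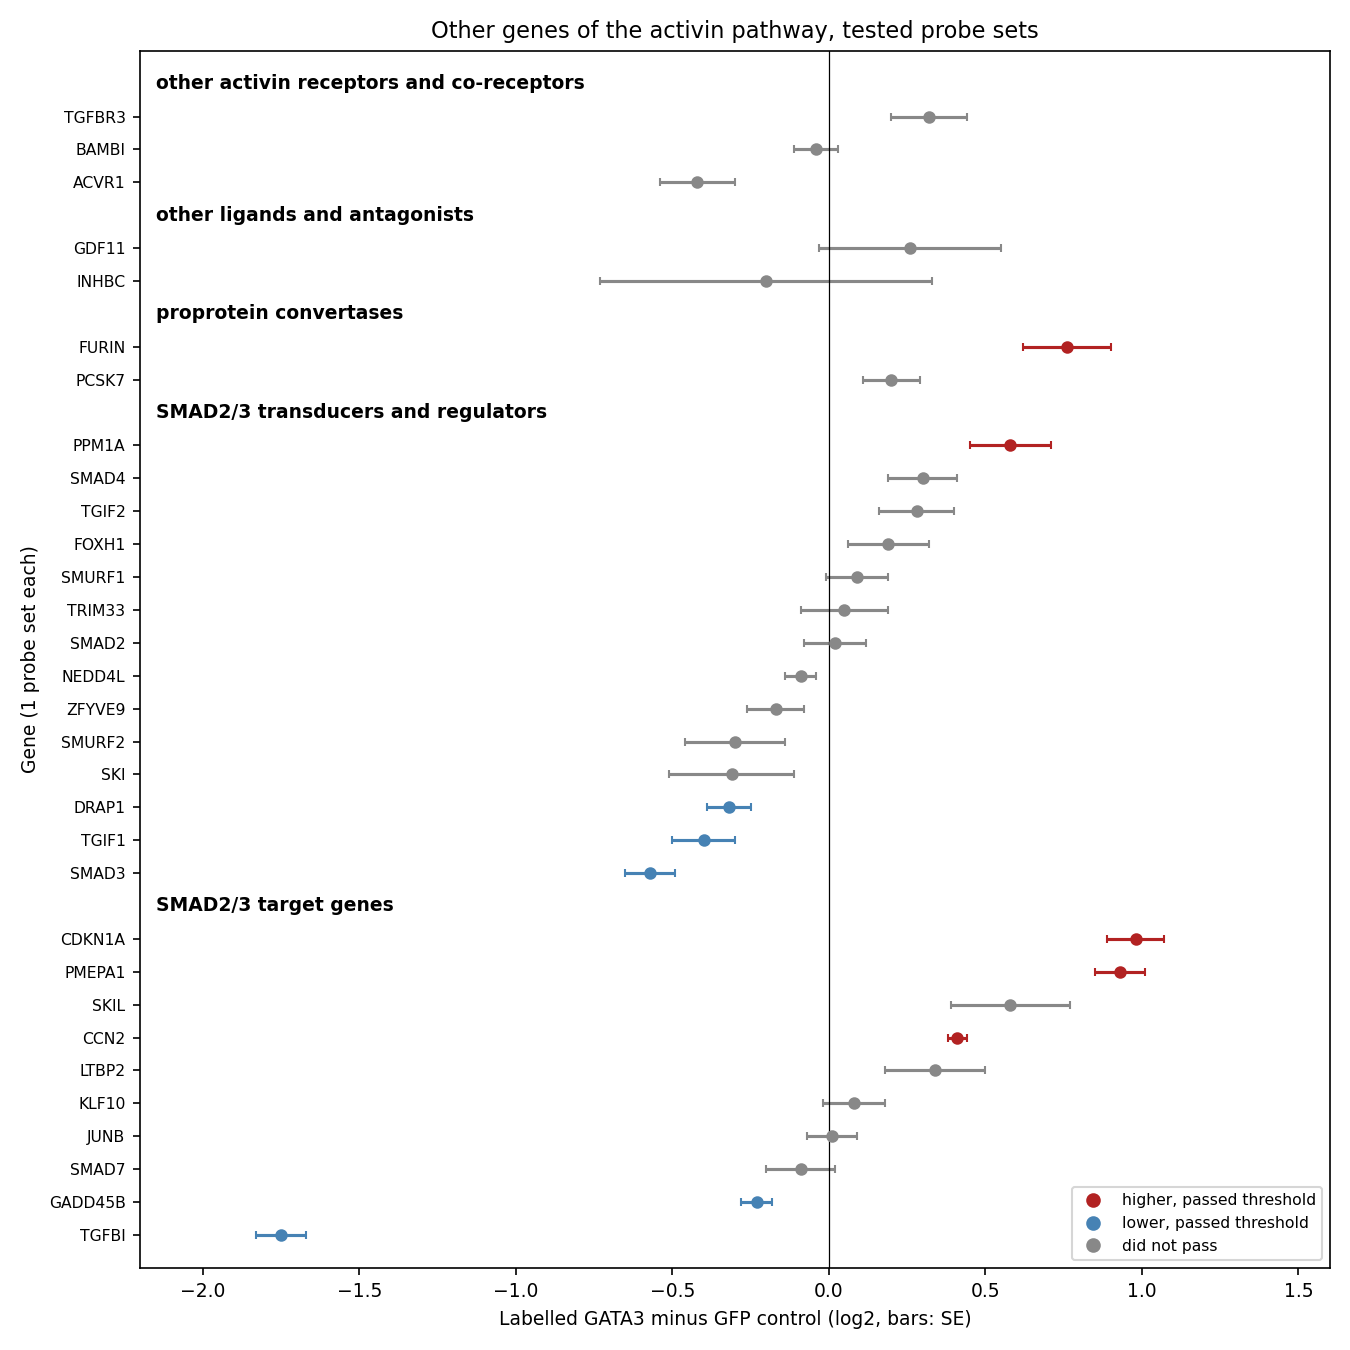
Difference between the arrays labelled GATA3 and the GFP control arrays (log2, horizontal axis, bars for SE) for the 31 tested pathway genes, 1 probe set each, by list. Red points rose and blue points fell past an adjusted p of 0.05, and grey points did not pass. TGFBI at -1.75 lies farthest from 0, and the points of every list with over 2 tested genes lie on both sides of 0.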

How the data were processed

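Total RNA was labelled with biotin and hybridised to 6 single-colour arrays of 54675 probe sets, 3 per group, grouped by the labels. The values the authors deposited are log2 expression values. GCRMA is named in the submitters' processing notes, and its version is not given here. Neither labels nor file state the scale, and log2 was read from the range of the values. No further scaling was done. The 62 control probe sets were left out. Probe sets over 4 in at least 3 of 6 arrays, whatever their group, were tested (23785, with 30828 left out). The detection level of 4 is a convention. The number of arrays limits the precision.

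The groups were compared with limma 3.58.1 in R 4.3.3 (lmFit, eBayes with an intensity trend, no covariates, Benjamini-Hochberg over all tested probe sets, threshold 0.05). On simulated data 80 probe sets were changed by 0.5 (log2), 80 by 1 and 40 by 2. The fit found 20%, 72.5% and 95% of these, so it missed most small changes. False calls were 8.2% of its calls, somewhat over the threshold. Far fewer probe sets were changed there than passed here, so these rates may not hold for these data. Adjusted p-values are limma's. A fold is 2 to the power of the difference of log2 means. Where a whole group lay at or under 4 the fold is a lower bound, with values under 4 set to 4. For each list gene the brightest of its tested probe sets over the 6 arrays was used. The genes described and the lists were chosen with earlier results of these data known. Named were all 10 genes, GATA3, the markers, up to 5 passing genes per list, and the 4 genes nearest to each of INHBA and INHBB. Other list genes and probe sets were named after their values were seen. The labels state no pairing of arrays, so the main fit has no block. Deviations from the group means correlated at -0.135, 0.159 and -0.109 between samples with the same replicate number. Between samples with different numbers they correlated at -0.253 to 0.228, so these values do not settle whether arrays were paired. Alternatives were other variance, filter, scaling and weight settings, a replicate block and the leaving out of each array.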

Additional observations from a re-analysis of the deposited data

How the results depend on the processing

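Of the 14 tested probe sets of the activin system, the called ones kept the sign of their difference under all 13 alternatives. Most of this was fixed in advance. The groups did not overlap in any called one, so leaving out or weighting arrays could not turn a sign. The other variance and filter settings and the replicate block leave the differences unchanged. Only quantile normalization and array median scaling could have turned one. INHBA (210511_s_at) ranged from 5.66 to 5.90, INHBB from -4.53 to -3.19 and FST (226847_at) from -1.60 to -1.43. ACVR2A (205327_s_at), which did not pass, ranged from -0.14 to 0.09. With any 1 array left out, 3 of these probe sets were higher and 4 to 5 lower, and the pathway lists had 3 to 9 genes higher and 2 to 7 lower. Over all probe sets 1796 to 3581 were then higher and 1801 to 3752 lower, the largest counts without GATA3 replicate 3. Without a filter on low values, 1767 probe sets of all were lower, and 3 pathway genes were higher and 3 lower, with more probe sets to adjust over. Quantile normalization and array median scaling each gave 9 pathway genes higher. Array weights, whose estimation did not converge and which gave GATA3 replicate 2 a weight of 11.8, gave 5195 probe sets higher and 6642 lower, with 11 pathway genes higher and 8 lower. For these the cause was not tested. With the replicate number as a block, which the labels do not say pairs the arrays, 2106 probe sets and 2 pathway genes were lower, and INHBB and ACVR2B missed the threshold, as they did without a filter. The median of all differences moved from -0.05 to 0.03 at most between scalings.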
